A study of Caenorhabditis elegans with 4 samples.

Results

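The regions described here are the nuclear SMC-6 peaks of Caenorhabditis elegans embryos that both ChIP libraries called. They are 570 of the 3380 nuclear peaks (16.9%) of a list covering the whole series. Each shares at least 1 bp with a peak of the replicate 1 list and with a peak of the replicate 2 list, and these 570 are called members below. They were chosen by the overlap of measured peaks, so that overlap describes the members and supports nothing further. All libraries came from wild-type N2 embryos of mixed stages and both sexes, kept at 20 °C and fixed with formaldehyde, and no mutant or treated group was analysed here. SMC-6 was precipitated with an affinity-purified rabbit polyclonal antibody (SDQ4562) in 2 libraries, and 2 libraries of input DNA, the chromatin before precipitation, accompanied them. Peak lists of the 2 ChIP libraries and the series-wide list were used. No input list and no antibody control without SMC-6 was analysed here, so background signal from repeats or open chromatin cannot be told apart from binding.

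SMC proteins are long ATPases that fold back on themselves and pair up to hold or extrude loops of DNA. SMC-5 and SMC-6 form the core of a complex known for its work in DNA repair and recombination, beside its relatives cohesin and condensin. In C. elegans the complex is needed to repair DNA breaks in the germ line. A sharp peak in such a map marks a short site, and a wide one a stretch of chromatin recovered along its length.

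The members had 2 extremes of shape. At one end stood 57 sharp members, under 1000 bp wide, with a series-wide score in the upper 10% of members (125 or more). At the other stood 34 wide members of 2000 bp or more, and 479 others lay between or below. The score is the authors' value from the peak caller, on a scale that no header states. Sharp members had a median score of 197 (quartiles 155 and 242) and a median width of 512 bp (448 and 598). Wide members had a median score of 30.1 (23.4 and 47.2) and a median width of 3104 bp (2543 and 4396). Widths and scores defined these groups and are given as a description. The highest score of any wide member was 54.6, and no peak at or above 125 anywhere in the list reached 1000 bp.

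**Figure D1:**
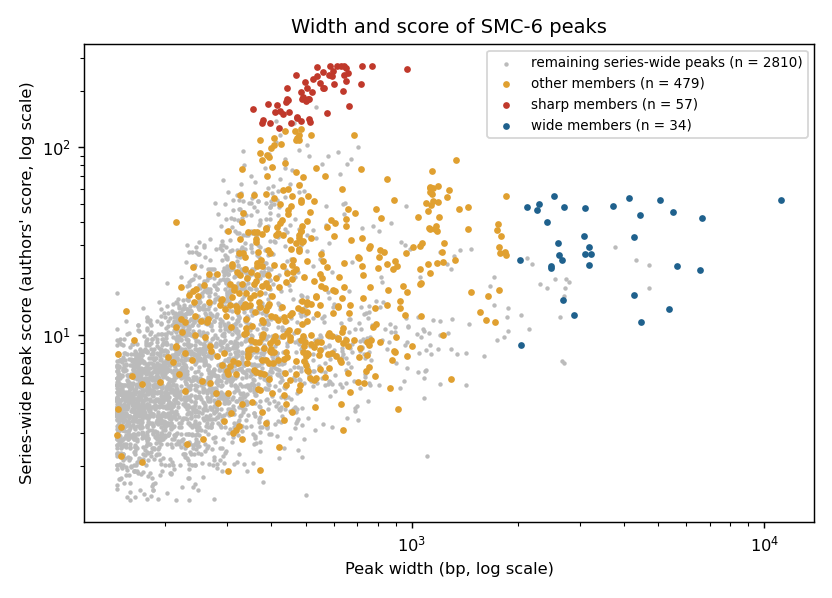
Each point is 1 nuclear peak of the series-wide list, with its width in bp and its score on log axes. The 57 sharp members lie highest, under 1000 bp in width, the 34 wide members lie at 2000 bp and beyond with scores up to 54.6, and the 2810 remaining peaks in grey gather at low width and score.

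The sharp members were short sites that the replicate 2 list ranked at its very top. Their partner peaks in replicate 2 scored 1210 at the lowest, 2255 at the median and 3173 at the highest, and all 57 stood in the upper 10% of that list. In replicate 1 the same sites scored 96.7 at the lowest, 632 at the median and 2908 at the highest, and 33 of 57 (57.9%, exact 95% interval 44.1 to 70.9%) stood in its upper 10%. The replicate 2 score was the higher at each of the 57 sites. On the log2 scale of replicate 1 over replicate 2 the median was -2.01 (quartiles -2.46 and -1.68). Among the 479 other members the median was -0.14 (quartiles -1.32 and 0.97), and among all members it was -0.30. Scores of the lists rest on library depths that are unknown here, so this ratio is compared between classes. Counts of which library scored higher, here and below, describe the listed scores and not the amount of binding. By percentile within each list, sharp members still leaned to replicate 2 (median -5.43 points), but other members leaned to replicate 1 (7.38 points). The series-wide score, which picked the sharp members, followed replicate 2 (Spearman's rho 0.78 across the 570 members) more than replicate 1 (rho 0.37), and both libraries may have entered it. A choice by this score is therefore also partly a choice by replicate 2 score.

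Choosing the sharp members by another list's score changed the picture. With the upper 10% by replicate 2 score, 37 members under 1000 bp were found, 33 of them already among the 57, and 34 scored higher in replicate 2. With the upper 10% by replicate 1 score there were 19, only 2 of them among the 57, and 2 scored higher in replicate 2. Those 19 lay on 9 replicate 1 peaks, and 9 of them were pieces along 1 replicate 1 peak on chromosome I. That selection was made after the values were seen.

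**Figure D2:**
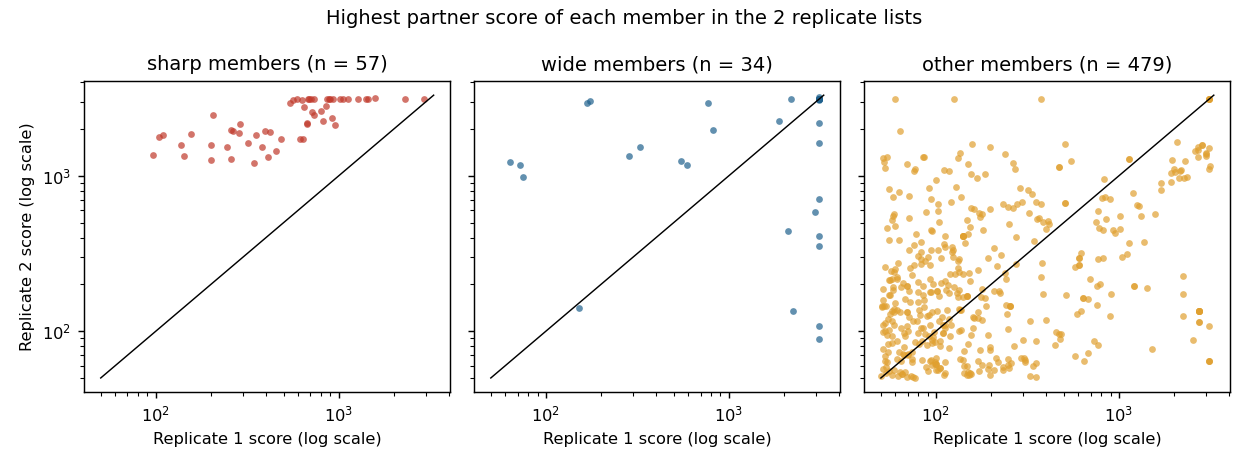
Each point is 1 member, with the highest score of its partners in replicate 1 on the x axis and in replicate 2 on the y axis, both log scales, and the line marks equal scores. All 57 sharp members lie above the line, while the 34 wide members fall on both sides of it and along the tied value of 3100.

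The top sharp site of each chromosome shows the pattern. On chromosome II the peak at 10034508 to 10035095 scored 1129 in replicate 1 and 3100 in replicate 2, the tied value at the top of both lists. On III the peak at 4568395 to 4568933 scored 1407 and 3100. On V the peak at 14038232 to 14039001 scored 1267 and 3100. Replicate 2 was the higher at each of these 3 sites, with log2 ratios of -1.46, -1.14 and -1.29, nearer to 0 than the class median. The replicate 2 score at all 3 was the tied value, and whether that tie holds the ratios near 0 was not tested. On IV the peak at 390199 to 390793 scored 632 in replicate 1 and 3084 in replicate 2. The best site on X, at 9296567 to 9296958, scored 484 and 1726. The libraries came closest on III at 10460926 to 10461462, where replicate 1 scored 2908 and replicate 2 scored 3100. They stood farthest apart at 1595574 to 1596235 on IV, with 110 against 1818, and at 2768542 to 2769051 on III, with 104 against 1769. Within the class the order of the sites was alike in the libraries, at 0.80 for Spearman's rho and 0.66 for Pearson's r (57 sites), and at 0.61 for both over the 39 sites that scored under 3100 in both lists. The sites share libraries and depth, so these are descriptions.

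Several sharp sites came in close pairs. Of the 57, 15 (26.3%, 15.5 to 39.7%) had another sharp member within 10 kb, making 8 neighbouring pairs. A member of the same class lay that near to 9 of 34 wide (26.5%) and 178 of 479 other members (37.2%). Pairing thus does not set sharp sites apart. The pairs were grouped by gap after the gaps were seen, and gaps of other members were not compared. In 4 of the pairs the gap between the peaks was 482 to 508 bp and the centres were 1067 to 1150 bp apart. They lay on I at 6722986 to 6724803 and 13487447 to 13489072, on II at 10033374 to 10035095 and on V at 5776850 to 5778580. In a further 3 pairs the gap was 2530 to 2590 bp, on I from 2036449 to 2040000, on II from 5347120 to 5350776 and on III from 13292462 to 13296615. The last pair, on II, was 144 bp apart (5346325 to 5346975 and 5347120 to 5347604). The partners of a pair lay on separate peaks in both replicate lists in each of the 8 pairs. In replicate 1 the scores within a pair differed to a varying degree. The III pair scored 1056.5 and 703.8 there. In replicate 2, 3100 is the tied value, so equal scores of 3100 do not show how close the sites are. The V pair scored 593 and 676 in replicate 1 and 3100 at both sites in replicate 2. The II pair at 10033374 scored 1447 and 1129 in replicate 1 and 3100 at both sites in replicate 2. The site on II at 5347120, which belongs to a pair on either side, was lower than both neighbours. It scored 397 in replicate 1 and 1946 in replicate 2, against 858 and 3100 to its left and 889 and 3100 to its right.

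Replicate 2 peaks were the wider in general, with a median of 446 bp over the whole list against 298 bp in replicate 1, and sharp sites shared this. At 55 of the 57, a member had 1 partner in each list that touched no other member, and the replicate 2 peak was the wider at all 55. The same was seen at 286 of 377 other members and at 350 of 443 members in all. The median width was 435 bp in replicate 1 (quartiles 359 and 512) and 676 bp in replicate 2 (631 and 752). The starts differed by a median of 119 bp and the ends by 127 bp, yet the centres differed by only 32.5 bp. At 54 sites the centres lay within 100 bp. Replicate 2 peaks covered all bases of 52 sharp members, and replicate 1 peaks covered all bases of 3.

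**Figure D3:**
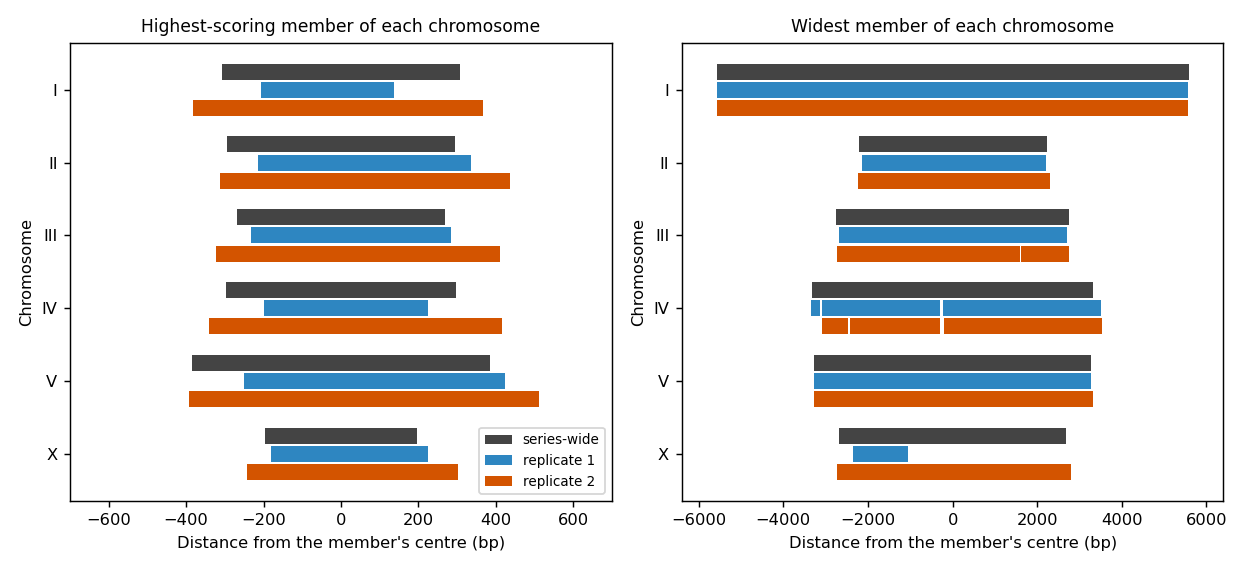
Bars show, as distance in bp from the member's centre, the series-wide peak and its partners in each replicate list, for the highest-scoring member (left) and the widest member (right) of each chromosome. At the sharp sites the replicate 1 bar sits inside the replicate 2 bar, and the wide regions on I and V keep nearly the same borders in all lists.

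The wide members were long stretches, and their borders could be compared at 11 of the 34. At these 11, each list held 1 peak and no other member touched it, which leaves out all divided or shared regions. Their starts differed by a median of 32 bp and their ends by 31 bp, and by up to 485 and 616 bp. The peaks were 2700 bp wide in replicate 1 and 3122 bp in replicate 2 at the median. A region on V at 17308514 to 17311618 ran from 17308520 to 17311635 in replicate 1 and from 17308547 to 17311668 in replicate 2, with 3100 in both. Another on V at 5283183 to 5285875 scored 3100 in replicate 1 and 3200 in replicate 2, the highest score of that list. The widest of all, 11157 bp on I at 15060218 to 15071374, ran from 15060222 to 15071349 in replicate 1 and from 15060226 to 15071351 in replicate 2, with 3100 in both. It ends close to the right end of I, where the tandem ribosomal RNA genes are known to lie, though no annotation of the files' build was used and the positions were not compared. On IV the region at 12316256 to 12319334 scored 3100 and 2199, from peaks of 3066 and 3131 bp. At the median, 97.9% of a wide member's bases lay in peaks of both libraries (quartiles 86.6 and 99.7%), against 85.0% (67.1 and 93.3%) for sharp and 77.4% (50.5 and 94.9%) for other members. A peak's width sets how far a fixed border shift lowers this share, and that part was not tested.

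The listed scores of many wide members differed between the libraries, in both directions. Replicate 1 scored higher at 12 of the 34, replicate 2 at 14, and 8 were equal at the tied value. The scores were at or above 3100 in both libraries at 9 members. Of these, 3 on I shared 1 peak in each list, and those on V at 17119901 and 17129627 shared a replicate 1 peak. The 9 are therefore not separate cases. Replicate 1 scored at least 4 times replicate 2 at 8 of the 34 (23.5%, 10.7 to 41.2%), and replicate 2 at least 4 times replicate 1 at 7 (20.6%, 8.70 to 37.9%). In the first group replicate 1 scored 2100 to 3100, and replicate 2 scored 88.6 to 714. In the second, replicate 1 scored 63.5 to 326, and replicate 2 scored 977 to 3012. The region on V at 8699722 to 8702911 had nearly the same borders in the lists but scored 3100 in replicate 1 and 107 in replicate 2. On V at 7988874 to 7991468 the scores were 3100 and 410.2, and its peaks ran from 7988869 to 7991568 and from 7988837 to 7991561. In the opposite direction, the region on X at 9185831 to 9188704 scored 63.5 in replicate 1, from a 722 bp peak, and 1231 in replicate 2, from a 3838 bp peak. The region on I at 10130515 to 10133131 scored 175 and 3012. Spearman's rho between the libraries was 0.30 across the 34 wide members, and -0.12 across the 16 below the tied value in both lists. The median log2 ratio was 0 over the 34 and -1.59 over those 16. Leaving out tied members selects on the scores being compared. At 3100 or more stood 17 wide members in replicate 1 and 10 in replicate 2, so more high replicate 1 scores were dropped. The -1.59 and the rho of -0.12 therefore do not show a lean or a disagreement of the class. Below the tied value the median log2 ratio of sharp members was -2.29. Of the 57, 18 stood at 3100 or more in replicate 2 and 0 in replicate 1.

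The replicate lists often divided the wide regions into several peaks. At 16 of the 34 a list held more than 1 partner, 13 of them in replicate 1 and 8 in replicate 2. Among sharp members the counts were 1 and 0 of 57. Among the others they were 41 and 11 of 479. Width defined the classes, and a wider member has more room to touch several peaks, a part that was not tested. The most divided was on X at 7352048 to 7356514, with 8 narrow partners in replicate 1 scoring 52.4 to 151. Replicate 2 held only 1 peak there, 372 bp wide, with a score of 142. Only 2.87% of its bases lay in peaks of both libraries. On I the reverse was seen, where 3 adjoining wide members from 10945874 to 10953062 lay on 1 peak of 7159 bp in replicate 1 and on 1 peak of 7201 bp in replicate 2, each with a score of 3100.

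**Figure D4:**
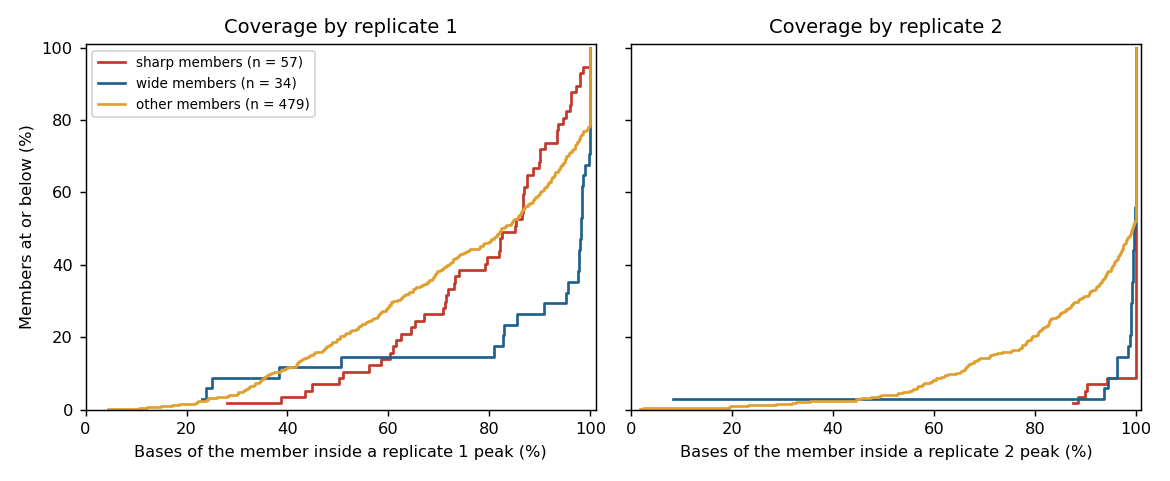
Lines give, for each class, the share of members (y axis, %) whose bases lie inside replicate 1 peaks (left) or replicate 2 peaks (right) up to the percentage on the x axis. Replicate 2 covered all bases of 52 of the 57 sharp members, while replicate 1 coverage ran from 27.9% to 100% of a sharp member and from 4.36% to 100% of an other member.

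Many members lay close to another one. A further member lay within 10 kb of 20 of the 34 wide members (58.8%), 16 of the 57 sharp members (28.1%) and 189 of the 479 others (39.5%). With members under 1 kb apart joined, the same held for 7 of 30 wide (23.3%, 9.93 to 42.3%), 7 of 52 sharp (13.5%, 5.59 to 25.8%) and 73 of 398 other regions (18.3%, 14.7 to 22.5%), and the intervals overlap. Tandem pieces made up the longest blocks. Joined in this way, the 570 became 480 regions, of which 57 held 2 or more members and 15 held 3 or more, with 63 members in all. The largest block on I ran from 14885111 to 14890543 and held 9 members of 353 to 594 bp with series-wide scores of 3.87 to 11.8. Replicate 1 called it as 1 peak of 6153 bp with a score of 2742, and replicate 2 as 2 peaks scoring 114 and 135. A block on II, from 13817470 to 13829441, also held 9 members. Both libraries divided it into 8 peaks, with scores of 99.5 to 3152 in replicate 1 and 67.0 to 1589 in replicate 2. That 3152 was the highest score of the replicate 1 list. On V, members from 17115344 to 17132151 formed a run of 8. Most of that run lay on an 11914 bp peak in replicate 1 and on peaks of 7890 and 4499 bp in replicate 2, each with a score of 3100. Chromosome V carries the tandem array of 5S ribosomal RNA genes, and its position was not compared with the run either. A block of 4 members on I, from 10266480 to 10276210, lay on 1 replicate 1 peak of 10047 bp with a score of 3100. Replicate 2 held 3 peaks there of 62.4 to 88.6. These pieces gave 4 of the 5 members that leaned most to replicate 1, with log2 ratios of 5.13 to 5.58, and the last of the 5 was a 391 bp piece on V at 8699270 to 8699660 (4.85).

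Of the 5 members that leaned most to replicate 2, 4 were under 1000 bp wide. On II the peak at 7478534 to 7479217 scored 63.5 in replicate 1 and 1943 in replicate 2. A further II peak at 10300858 to 10301257 scored 51.5 and 1302. On III the peak at 11236584 to 11237101 scored 54.1 and 1321. Their series-wide scores of 99.1 to 116 put these 3 under the limit of 125 for the sharp class. The other 2 of the 5, on III at 13295724 and 1299648, touched a replicate 2 peak with a score of 3100, the first by 4 bp only.

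All 6 chromosomes had a member at the very first base, the left tip. These peaks were 215 to 484 bp wide, with series-wide scores of 5 to 51.97. Chromosome ends carry telomere repeats, which protect them from being joined or degraded. The left tip of I scored 2304 in replicate 1 and 1249 in replicate 2. That of V scored 1323 and 554, and that of X 1249 and 650.3. The left tip of II scored 1011 and 549, IV 619 and 321, and III 572 and 259.9. Replicate 1 was the higher at all 6, by a narrow span of log2 ratios from 0.88 to 1.26. Over all 570 members it was the higher at 229 (40.2%). All 57 sharp members were higher in replicate 2, but the score that picked them follows replicate 2, so that contrast with the tips is partly built in. The last base of the tip peak differed by at most 10 bp between the libraries on 4 chromosomes and by 95 bp at most. At the right tip the series-wide list also held a peak on all 6 chromosomes, with scores of 8.22 to 38.1, but none touched a peak of either replicate list. The nearest replicate 1 peak was 329 bp away on I and up to 101544 bp away on IV. The nearest replicate 2 peak was 327 bp away on I and up to 173858 bp away on X. The series-wide peak at the right tip reaches beyond the last peak of either replicate list on each chromosome. The headers name the same build for all lists, but chromosome lengths of that build were not checked here, so these distances rest on that statement. No input was analysed at the tips, and these sites were singled out after their values were seen.

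Few sharp members lay on X. Of the 57, 1 lay there (1.75%, 0.0444 to 9.39%). X held 17.4% of all members (14.3 to 20.7%) and 17.7% of the nuclear genome. It also held 19.1% of the remaining peaks, taken at any score (17.6 to 20.6%). Per Mb there were 0.0564 sharp members on X, 0.400 on IV, 0.526 on V, 0.589 on II, 0.995 on I and 1.02 on III. X stood below each of the 5 autosomes. After the site at 9296567 the next highest score of a narrow member on X was 77.5. The 87 members under 1000 bp on X had a median score of 16.2, close to 15.2 for the 393 on the autosomes, but their upper quartile was 27.6 against 41.3. The difference thus lay at the top of the range. High-scoring peaks outside the members were few on X as well. Of the 56 remaining peaks of any width that scored 50 or more, 2 lay there (3.57%, 0.435 to 12.3%). Among members at that limit it was 7 of 99 (7.07%). Of the 76 peaks in the whole list that scored 100 or more, 1 lay on X. A low share on X therefore went with the highest scores and does not set sharp members apart from high-scoring remaining peaks. Members under 1000 bp were also divided into 5 groups of equal size by series-wide score. From the lowest group up, X held 12.5% (6.63 to 20.8%), 20.8, 21.9 and 28.1% of the lower 4. It held 7.29% (2.98 to 14.4%) of the highest group. The share thus rose with score before it fell, and the intervals of the lowest and highest groups overlap. Divided by replicate 1 score, the highest group had 7.29% on X and the lower 4 had 12.5 to 27.1%, with the 12.5% in the group next to the highest. Divided by replicate 2 score, it was 6.25% and 14.6 to 26.04%. The selections by 1 replicate's score found 0 of 37 on X by replicate 2 and 0 of 19 by replicate 1, where a count of 0 allows up to 9.49 and 17.6% (exact upper bounds). Only 9 replicate 1 peaks carried those 19. The share on X rose where the limit on the score fell. With the upper 20% of member scores (51.46 or more), 7 of 98 lay on X (7.14%, 2.92 to 14.2%). Where 1 library's list alone decided membership, the upper 10% also began lower. Without replicate 1 it began at 56.8, with 9 of 129 on X (6.98%, 3.24 to 12.8%) against 18.1% of all peaks that touched a replicate 2 peak. Without replicate 2 it began at 44.4, with 10 of 107 on X (9.35%, 4.57 to 16.5%) against 15.5% of all peaks that touched a replicate 1 peak. These intervals cover counting error only and treat sites as independent. No test was run, since sites of 1 genome are not replicates.

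Wide members showed no such gap, with 7 of 34 on X (20.6%, 8.70 to 37.9%). Chromosome V held 10, I held 8, IV held 5, and II and III held 2 each. Other members lay on X in 91 of 479 cases (exact interval 15.6 to 22.8%). No sharp member lay within 10 kb of a wide one, the nearest pair was 80.04 kb apart, and the median distance from a sharp member to a wide one was 1627 kb. For other members the median distance to a wide one was 975 kb, and 24 of 479 lay within 10 kb. Measured the other way, wide members lay a median of 946 kb from a sharp one and other members 996 kb, with 3 of 479 others within 10 kb. Placement by chance was not worked out for these distances.

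**Figure D5:**
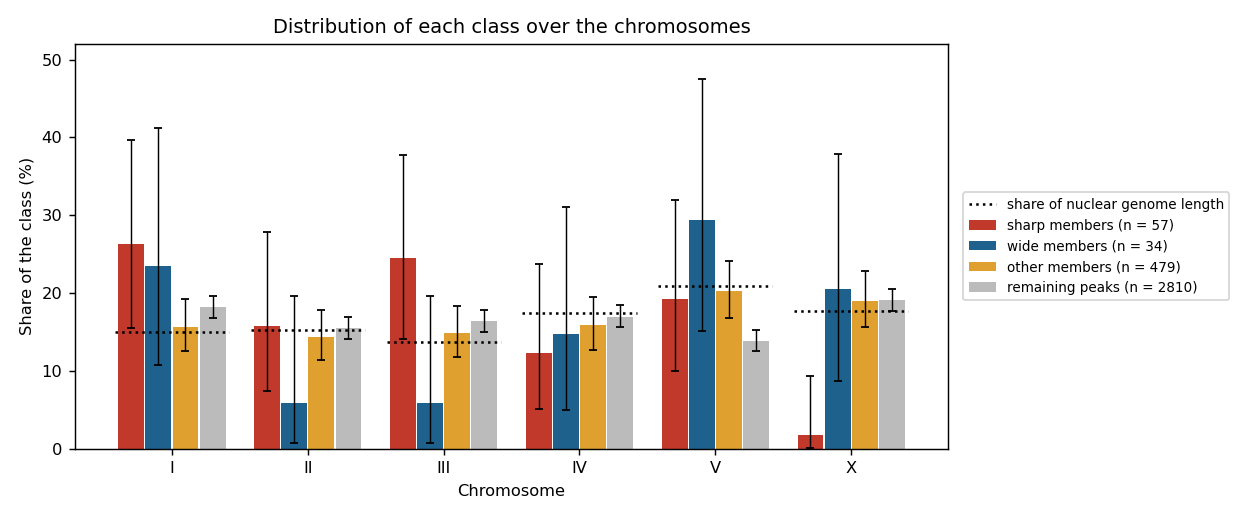
Bars give the percentage of each class on each chromosome with exact 95% binomial intervals, and dotted lines the chromosome's share of nuclear genome length. Sharp members reach 26.3% on I and 24.6% on III and fall to 1.75% on X, while wide members reach 29.4% on V.

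Along the autosomes each class was less dense in the outer parts than in the middle under both divisions used. Most of the intervals contained 1. With each autosome cut into 3 parts of equal length, all members had 5.36 peaks per Mb in the outer parts and 6.396 in the middle part, a ratio of 0.838 (0.693 to 1.02). The ratio was 0.900 for sharp (0.507 to 1.64), 0.727 for wide (0.317 to 1.73) and 0.838 for other members (0.679 to 1.04). Each of these intervals, from exact binomial bounds, contains 1. With 25% of the length at each end of an autosome set against its middle, the ratio was 0.764 for other members (0.621 to 0.938), below 1 beyond counting error. It was 0.806 for sharp (0.457 to 1.41) and 0.5 for wide members (0.198 to 1.17). Over the other settings tried, the sharp ratio lay on both sides of 1. It ran from 0.8 (upper 20% of scores) to 2.67 (chosen by replicate 1 score). The shares were close for members that leaned to either library: 32 of the 50 autosomal members with a replicate 1 score at least 4 times higher lay in the outer parts (49.2 to 77.1%), and 48 of the 77 with a replicate 2 score at least 4 times higher (50.6 to 73.1%). Peaks called in replicate 1 but not in replicate 2 had a ratio of 1.58 (1.32 to 1.89), and those of replicate 2 alone 0.800 (0.681 to 0.940).

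Among the remaining 2810 peaks few looked like the extremes. In the whole list 60 peaks had a score of at least 125, and 57 of them were members (exact interval 86.1 to 98.96%). The other 3 had no replicate 1 peak. They lay on II at 9054438 to 9054971, on III at 3174976 to 3175437 and on V at 13962012 to 13962422, with replicate 2 scores of 2427, 1383 and 1375. Of 52 peaks of 2000 bp or more, 34 were members (65.4%, 50.9 to 78.03%), 5 had a partner in replicate 1 only, 10 in replicate 2 only and 3 in neither. Those 3 lay side by side on X from 4036236 to 4051217, with scores of 19.2 to 24.95. The nearest replicate 1 peak was 3742 bp from the first of them and the nearest replicate 2 peak 6143 bp. They lay to the right of a wide member at 4025977 to 4029208 that scored 27.0. Peaks in replicate 1 only had a median series-wide score of 5.54 and peaks in replicate 2 only 13.2.

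Membership rose with score among peaks of 300 bp or more and under 2000 bp. Over all scores it also rose with width, from 1.15% of peaks under 200 bp to 65.4% of those of 2000 bp or more. At scores of 20 to 50 it rose from 7.41% at 200 bp or more and under 300 bp to 82.8% at 2000 bp or more. Among peaks of 300 bp or more and under 500 bp, 11.8% of those scoring under 5 were members (7.12 to 18.0%), 28.6% of those scoring 10 to 20 (22.5 to 35.5%) and 57.1% of those scoring 50 or more (46.7 to 67.1%). Among peaks of 500 bp or more and under 1000 bp the same shares were 27.8, 50.0 and 79.6%. Of the 14 peaks of 1000 bp or more and under 2000 bp that scored 50 or more, 14 were members. At scores of 5 to 10 the share was 37.5% (29.4 to 46.2%) of peaks of 500 bp or more and under 1000 bp. It was 13.6% (2.91 to 34.9%) of the 22 peaks of 1000 bp or more and under 2000 bp. At scores of 10 to 20 it was 50.0% (38.0 to 62.0%) and 37.5% (18.8 to 59.4%) at the same widths. Of the 16 peaks of 2000 bp or more it was 31.2% (11.0 to 58.7%). Within each range of scores these intervals overlap. Overlap alone does not exclude a fall with width, which was not tested. Among peaks of 200 bp or more and under 300 bp the share was 9.52% at scores of 10 to 20, 7.41% at 20 to 50 and 0 of 3 above. A wider peak has more chance to touch another, and scores and membership come from the same libraries.

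Few members stood near the line of the rule. The smallest overlaps were 4 bp at 13295724 to 13295954 on III, 7 bp at 6551547 to 6551828 on III and 16 bp at 13822658 to 13822807 on II, and 8 members had an overlap of 50 bp or less with a list. Just outside it, a peak on V at 18400315 to 18400750 missed a replicate 1 peak by 14 bp, one on X at 3127827 to 3128039 by 16 bp, and one on IV at 12621724 to 12621926 missed both lists, by at most 23 bp. In 5 members (0.877%) no base lay inside peaks of both libraries at once, so the libraries touched different parts of them, and in 125 (21.9%) less than 50% of the bases did.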

How the data were processed

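Peak lists of 2 SMC-6 ChIP libraries and a series-wide list were analysed. Reads were aligned with BWA to ce10, per the submitters' processing notes, and coordinates are WormBase WS220, 1-based, per the file headers. Peaks were called with MACS for each library and with MACS v2 for the series, per the files' own source field. The sources used here do not state the BWA version, nor how libraries and inputs entered the calls. The deposited score is the authors' peak caller value and its scale is not stated. The first and last base are the other deposited values. Read depth is unknown, so no count test was run.

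A member's partners were all replicate peaks sharing 1 bp or more. Its score in a library is that of its highest partner. Chromosome length is the last base of any listed peak. Coverage, gaps and shares were computed with numpy 2.4.6, pandas 2.3.3 and scipy 1.17.1, and checked on simulated lists. Shares carry exact (Clopper-Pearson) 95% intervals. No test over sites was run, and 2 libraries of 1 group allow none over samples. The labels do not say whether the libraries came from separate cultures. No sequences or genes are given, since the gene table at hand is of another assembly. Members, classes and named regions were chosen with earlier results of these data known. Named regions were the 10 highest-scoring and 10 widest members, the highest and widest of each chromosome, the 5 leaning most to each library, the longest runs, sharp members in groups, and 3 peaks on each side of the rule. Further regions, among them single sharp and wide members, wide non-members and the chromosome tips, were picked after their values were seen. Alternatives covered overlap rules, class limits, windows, merged members and 1 library alone.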

Additional observations from a re-analysis of the deposited data

How the results depend on the processing

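Of 167 alternative values, 140 stayed the same, by the SD over members for medians, the exact interval for shares, 0.1 for correlations and 1.5 times for counts and distances. The SD is a loose limit. Without members at 3100 or more in either list, the median log2 balance of wide members went from 0 to -1.59, and with an SD of 2.47 this counted as the same. That setting drops members by the scores being compared, and 17 wide members reached 3100 in replicate 1 against 10 in replicate 2. The 2 selections of sharp members by 1 replicate's score were added after the data were seen. There were 378 members with overlap of 50% of both peaks and 276 with the upper 50% of each list. With only 1 replicate list required there were 1358 to 1375, other members had 44.9 to 57.1% with a neighbour within 10 kb against 39.5%, and their ratio of outer parts to middle was 0.809 to 1.25 against 0.838. With overlap of 50% of both peaks, the share with a neighbour fell to 30.0% of wide (from 58.8%) and 24.7% of other members, whose ratio was 0.670 (0.519 to 0.866, below 1 beyond counting error, as was 0.764 with 25% at each end). Other members had 33.4% within 5 kb. Sharp members had none on X (0%) with the upper 50% of each list, from the upper 5% of scores, or chosen by 1 replicate's score, but 7.14% with the upper 20% of scores and 6.98 to 9.35% without 1 replicate. In the settings with none on X, their share with a neighbour, 28.1% as reported, was 42.9, 44.8, and 48.6 (replicate 2) or 84.2% (replicate 1). From the upper 5% their rho was 0.50 and the divided share 0%. Chosen by replicate 1 score, their log2 balance reversed to 4.34, the outer ratio was 2.67 and the median distance to wide members 171 kb. From 1500 bp, wide members had a rho of 0.13 and sharp ones lay 734 kb from them. By percentile, other members leaned to replicate 1 by 7.38 points. For each of these values the cause was not tested. No paired analysis was possible because the input libraries have no peak list here and no result comes from a test.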

Other observations

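On the mitochondrial genome, outside the nuclear members, 3 of the 12 series-wide peaks touched a peak of both replicate lists, and all 12 touched one of replicate 2. The 3 scored 57.3, 58.3 and 73.4 in the series-wide list. Their level in input DNA was not analysed.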
